A study of Mus musculus with 18 samples.

Results

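Peroxisomal fatty acid oxidation was followed in mouse liver through 9 genes chosen by symbol, *Acox2*, *Hsd17b4*, *Ehhadh*, *Acaa1a*, *Acaa1b*, *Scp2*, *Abcd3*, *Crot* and *Pex11a*. They were found by Ensembl identifier among the 22524 genes counted in every mouse, and all 9 passed the filter on low counts, together with 13353 genes in all. None of the 9 differed between A226Y and wild-type (WT) livers after adjustment over all tested genes. The bifunctional enzyme gene *Ehhadh* had a median of 1155 CPM (counts scaled to library size) in A226Y against 740.2 CPM in WT, but with a spread between mice that covered this difference. *Acox2*, an oxidase gene of bile acid and branched-chain fatty acid breakdown, was nearest to the threshold at 1.19-fold higher.

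Peroxisomes shorten very long-chain and branched fatty acids, dicarboxylic acids and the side chain of bile acid precursors. The acyl-CoA is imported through ABC transporters, dehydrogenated by an oxidase that passes electrons to oxygen and forms hydrogen peroxide, hydrated and dehydrogenated again by a bifunctional enzyme, and cleaved by a thiolase. The chain-shortened products leave the organelle as carnitine esters or free acids and can be oxidized further in mitochondria. In rodent liver several genes of this pathway are classical targets of the fatty acid receptor PPARα and respond to fasting and to peroxisome proliferators.

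The comparison was made between 10 livers of heterozygous *Rps2*-A226Y knock-in mice and 8 livers of wild-type mice that expressed Cre recombinase, with 1 RNA-seq library per mouse. All mice were females of the C57BL/6 strain, 15 months old, and the targeted allele came from 129/Sv embryonic stem cells and was backcrossed to C57BL/6. The A226Y change in ribosomal protein S2 is a ribosomal ambiguity mutation that lowers the accuracy of decoding. In the A226Y mice it was released from a *loxP*-flanked transcriptional stop cassette by CMV-Cre, a transgene active in all tissues. Per the study's methods the excision was partial, so these livers are mosaics that also carry the silent floxed allele. A lower dose of intact *Rps2* and the expression of the mutant protein therefore cannot be told apart here. The study also compared haploinsufficient livers, with the unexcised floxed allele, to wild-type controls. It reported far fewer changed genes there, with little overlap, and read this as effects of A226Y beyond haploinsufficiency. Those livers are not among the mice compared here. Time of day and feeding state at tissue collection are not given in the sources used here.

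Total counts ranged from 23850565 to 62126131 per mouse. *Rps2*, the targeted gene, measured 46.9 to 83.0 CPM in A226Y and 104 to 143 CPM in WT, without overlap (log2 fold change −0.73, standard error (SE) 0.107, adjusted p = 0.000772, edgeR quasi-likelihood test). The libraries A226Y 29 and WT 33 (numbered as in the labels) lay farthest from the rest of their genotype, with a median absolute deviation per gene of 0.25 and 0.163 on the log2 scale, against 0.0801 to 0.147 in the other mice. Hepatocyte markers were strongly expressed in every liver: their summed level was 84458 to 153334 CPM in A226Y and 91616 to 182823 CPM in WT, 4 of the 10 rose in A226Y and none fell, where 7.27% of all tested genes rose and 7.03% fell. Of the 8 stellate cell and fibroblast markers 4 fell (sums 344 to 403 CPM in A226Y, 341 to 423 CPM in WT), as did 1 of the 8 Kupffer cell markers (278 to 1083 and 416 to 841 CPM). For the Kupffer cell markers 7 of the 8 log2 fold changes were negative, with a median of −0.43. An unadjusted p under 0.05 was found for 4 of them (edgeR), beside 29.6% of all tested genes in either direction. No marker of sinusoidal endothelium (8 genes, 314 to 466 and 327 to 445 CPM), cholangiocytes (6 genes, 13.5 to 30.6 and 12.2 to 26.5 CPM) or lymphocytes (8 genes, 14.3 to 41.0 and 16.0 to 52.0 CPM) passed. All 8 lymphocyte markers had negative log2 fold changes (median −0.31) and all 6 cholangiocyte markers positive ones (median 0.28), while the endothelial markers were split at 4 and 4 (median −0.01). Adipocyte markers summed to at most 1.43 CPM. Of 6 pancreatic acinar markers (at most 7.2 CPM), *Amy2a5* was at 0 in every library, and *Cpa1*, *Pnlip* and *Cel* were at 0 in every WT library. The highest values of *Ctrb1* (2.61 CPM), *Cpa1* (0.47 CPM), *Pnlip* and *Cel* (0.235 CPM each) were those of A226Y 29. In whole liver, fewer cells of a type and less RNA per cell cannot be told apart, and the part of cell composition in the results below was not tested.

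Both thiolase genes lie close together on mouse chromosome 9, *Acaa1a* (ENSMUSG00000036138) at chr9:119339676-119350299 on the plus strand and *Acaa1b* (ENSMUSG00000010651) at chr9:119148023-119157093 on the minus strand (GRCm38, GENCODE M21). They encode 3-ketoacyl-CoA thiolases and are near copies of each other, so it matters how far a read can tell them apart. Their coding sequences have 1272 bases each, of which 44 differ (96.5% identical). The following stretches have the length of a sequencing read, 50 bases, and are shown because they bound what the counts of each gene can mean. The first pair, from coding bases 269 to 318 in exon 3, holds the most differences of any such window, 11, with the differing bases in capitals (*Acaa1a*, chr9:119342726-119342775, plus strand; *Acaa1b*, chr9:119155750-119155799, minus strand; 5′ to 3′, GRCm38).
Acaa1a: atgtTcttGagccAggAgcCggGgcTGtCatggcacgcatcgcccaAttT
Acaa1b: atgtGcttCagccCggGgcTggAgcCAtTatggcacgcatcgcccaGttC
The second stretch, coding bases 28 to 77 in exon 1, is the same in both (chr9:119341542-119341591, plus strand, and chr9:119156918-119156967, minus strand).
Acaa1a and Acaa1b: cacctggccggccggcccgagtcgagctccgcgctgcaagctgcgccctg
Of the 1223 such windows along the coding sequence 464 (37.9%) were identical, and the longest identical run had 327 bases. Over all annotated transcripts, 17.1% of the distinct 50-base stretches of *Acaa1a* and 39.6% of those of *Acaa1b* also occurred in another counted gene. Exons of *Acaa1a* also share 290 bases with *Myd88*, and those of *Acaa1b* 224 bases with *Dlec1*, on the opposite strand, and no source used here says whether counting used strand. The split of counts between both thiolase genes is therefore uncertain, and their sum is given below. For the other members the share was 2.13% for *Crot*, 0.166% for *Abcd3* and 0 for the rest. *Scp2* shared 29.7% of its stretches with a pseudogene, *Scp2-ps2*, which is not among the counted genes.

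The oxidase step is represented by *Acox2* (ENSMUSG00000021751, chr14:8225511-8259353, minus strand), whose product acts on branched-chain acyl-CoAs and on bile acid intermediates. It measured 187 CPM in the lowest A226Y liver, 222 CPM at the median and 284 CPM in the highest, against 156, 184 and 231 CPM in WT. Of the A226Y livers 4 were above the highest WT liver and 9 above the WT mean, so the ranges overlapped. The log2 fold change was 0.25 (SE 0.0939, 95% interval 0.05 to 0.44; 1.19-fold, 1.04 to 1.36), with p = 0.0153 before adjustment and an adjusted p of 0.078 in edgeR's quasi-likelihood test. A two-sided exact permutation test of its log2 CPM gave p = 0.0172. *Acox2* was the member whose call depended on the processing. Its adjusted p was 0.0461 in DESeq2, 0.0312 with scaling to library size only, 0.0424 without WT 33 (231 CPM, the highest WT value) and 0.0327 without both A226Y 29 and WT 33 (log2 fold change 0.30). With 4 surrogate variables as covariates the log2 fold change was 0.07 (adjusted p = 0.828).

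The region around the RefSeq start of *Acox2* held the only near match, among the 8 members with a promoter entry, to the direct repeat bound by PPARα with its partner RXR. The match is shown in capitals because PPARα is the best known regulator of this pathway (chr14:8258809-8258838, minus strand, RefSeq, GRCm38.p6; bases 10 to 22 after the start).
Acox2: gctgtcccAGGACAGAGGTGAgtcaagagt
The search used AGGTCANAGGTCA on both strands, with up to 2 mismatches in the 12 fixed letters, in a window from 250 bases before to 50 bases after each start. It matched 1190 of 27025 genes (4.4%), so 1 of 8 members is a description of these letters and not of binding. The half-site AGGTCA without mismatch occurred in 18.1% of all genes and in 1 of the 8 members, *Scp2*. *Hsd17b4* had no entry.

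The hydration and second dehydrogenation are carried out by bifunctional enzymes encoded by *Ehhadh* (ENSMUSG00000022853, chr16:21761287-21787807, minus strand) and *Hsd17b4* (ENSMUSG00000024507). EHHADH, the L-bifunctional protein, acts mainly on straight-chain and dicarboxylic acids. *Ehhadh* measured 807, 1155 and 1628 CPM (lowest, median, highest) in A226Y and 377, 740.2 and 1509 CPM in WT. The 2 highest WT livers, WT 6 at 1509 CPM and WT 28 at 1460 CPM, stood above 7 of the 10 A226Y livers, while the other 6 WT livers were at or below 996 CPM. Only 3 A226Y livers exceeded the highest WT liver, and 8 exceeded the WT mean. Its log2 fold change, the largest of the 9 in size, was 0.46 (SE 0.24, 95% interval −0.04 to 0.96; 1.37-fold, 0.971 to 1.94; adjusted p = 0.208, edgeR), and the exact permutation p was 0.0501. Of all members it varied most between mice, with a coefficient of variation of 48.9% in WT and 27.0% in A226Y. Leaving out WT 6 gave 0.62 (adjusted p = 0.0672), and leaving out WT 33, the lowest WT liver, gave 0.34.

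HSD17B4, the D-bifunctional protein, handles branched-chain acids and bile acid intermediates as well as straight chains. In contrast to *Ehhadh*, *Hsd17b4* had the smallest coefficient of variation of the members in WT (9.77%), and measured 457, 706 and 785 CPM in A226Y and 521, 672 and 729 CPM in WT. In both genotypes the lowest liver was set apart from the next, at 457 CPM in A226Y 29 against 586 CPM, and at 521 CPM in WT 33 against 615 CPM. The log2 fold change was 0.06 (SE 0.0952; adjusted p = 0.698, edgeR), and its 95% interval ran from −0.14 to 0.26 (0.911-fold to 1.2-fold).

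Thiolytic cleavage is served by *Acaa1a* and *Acaa1b* for straight chains and by the thiolase domain of SCP2 for branched chains and bile acid precursors. *Acaa1b* measured 588, 961 and 1116 CPM in A226Y and 399.6, 1024 and 1451 CPM in WT. Both extremes were WT livers, WT 33 at the bottom and WT 21 and WT 28 (1439 CPM) at the top, and no A226Y liver was outside the WT range. The log2 fold change was −0.20 (SE 0.197, 95% interval −0.61 to 0.21; adjusted p = 0.53, edgeR). *Acaa1a* measured 147, 222 and 262 CPM in A226Y and 188, 233 and 282 CPM in WT, and A226Y 29 alone was below the lowest WT liver. Its log2 fold change was −0.11 (SE 0.0925, 95% interval −0.30 to 0.08; adjusted p = 0.459). These were the only negative values among the 9. Summing the counts of both genes, an alternative added after the data were seen, gave 734, 1180 and 1338 CPM in A226Y, 587, 1242 and 1686 CPM in WT, and a log2 fold change of −0.18 (SE 0.169, adjusted p = 0.501).

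*Scp2* (ENSMUSG00000028603, chr4:108043839-108144998, minus strand) encodes sterol carrier protein 2 together with the longer thiolase form SCPx, which gene counts do not separate. It measured 892, 1182 and 1291 CPM in A226Y and 853, 1075 and 1220 CPM in WT. Of the A226Y livers 4 exceeded the highest WT liver and none was below the lowest. The difference was 0.14 on the log2 scale (SE 0.0858, 95% interval −0.04 to 0.32; adjusted p = 0.283, edgeR; exact permutation p = 0.107). It had the smallest standard error and, in A226Y, the smallest coefficient of variation of the members (11.2%).

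**Figure D1:**
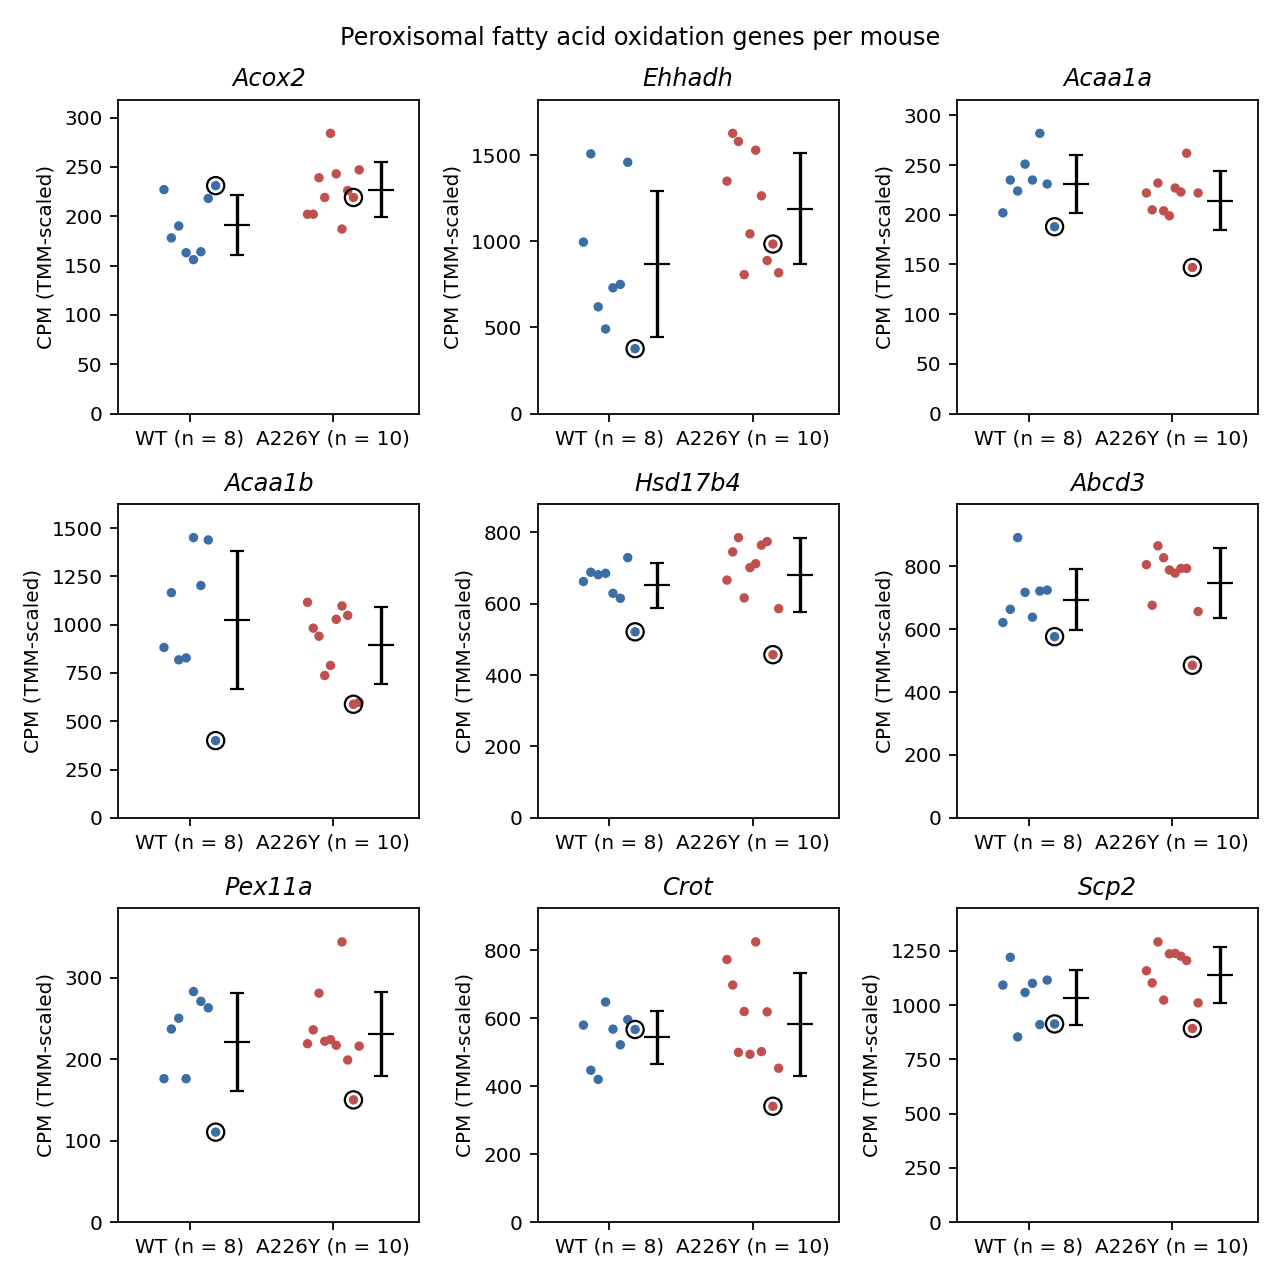
Level of each of the 9 genes in every mouse (y axes, CPM after TMM scaling, linear and starting at 0), WT in blue and A226Y in red, with horizontal lines for the mean and bars for the SD of each genotype, and rings around A226Y 29 and WT 33. The genotypes overlapped for every gene. *Ehhadh* showed the widest WT spread (377 to 1509 CPM), and the ringed mice were at or near the bottom for most genes but not for *Acox2*.

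Entry and exit of substrates were covered by *Abcd3* and *Crot*. *Abcd3* (ENSMUSG00000028127, chr3:121758774-121815302, minus strand), the abundant peroxisomal membrane protein PMP70, imports branched-chain and dicarboxylic acyl-CoAs and bile acid intermediates. It measured 485, 791 and 865 CPM in A226Y and 576, 690.3 and 891 CPM in WT. Although 7 of 10 A226Y livers were above the WT mean, the highest liver of all was WT 13, and A226Y 29 was the lowest. Its log2 fold change was 0.11 (SE 0.102, 95% interval −0.11 to 0.32; adjusted p = 0.516, edgeR). *Crot* (ENSMUSG00000003623, chr5:8966033-8997324, minus strand), the carnitine octanoyltransferase that prepares medium-chain products for export, measured 341, 560.2 and 825 CPM in A226Y and 420.0, 567 and 648 CPM in WT. Here A226Y livers held both ends of the range, with 3 above the highest WT liver and 1 below the lowest, and a coefficient of variation of 26.1% against 14.1% in WT. It had a log2 fold change of 0.10 (SE 0.142, 95% interval −0.20 to 0.40; adjusted p = 0.68).

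*Pex11a* (ENSMUSG00000030545, chr7:79735957-79743131, minus strand) encodes a membrane protein of peroxisome elongation and division whose transcript is inducible by peroxisome proliferators. It measured 150.0, 221 and 344 CPM in A226Y and 110.4, 244 and 283 CPM in WT. Median and mean differed in direction, since A226Y had the lower median (221 CPM) and the higher mean (231 ± 51.1 CPM, SD, n = 10, against 221 ± 60.4 CPM, n = 8). The log2 fold change of 0.06 (SE 0.163, 95% interval −0.28 to 0.40; adjusted p = 0.832, edgeR) turned to −0.04 without WT 33, its lowest liver, and to −0.02 without A226Y 22, its highest.

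Across the 9 genes, 0 passed an adjusted p of 0.05 in edgeR's quasi-likelihood test, where 14.3% of all tested genes did (7.27% higher and 7.03% lower in A226Y). Before adjustment 1 of 9, *Acox2*, had a p under 0.05, against 29.6% of all genes. The count of members past the threshold was 1 with DESeq2 and with library-size scaling, each time *Acox2*, and 0 with limma-voom, the likelihood ratio test and the robust quasi-likelihood fit. The sign of the log2 fold change was positive for 7 members and negative for 2, with a median of 0.10, where the median of all tested genes was 0.00 (quartiles −0.15 and 0.13). The median of the members was 0.03 with an offset for GC content (all genes −0.04) and 0.16 without A226Y 29. No member separated the genotypes without overlap, as 0.637% of all tested genes did. The precision differed among members: the SE ran from 0.0858 for *Scp2* to 0.24 for *Ehhadh*, with a median of 0.0981 over all tested genes. Accordingly, an undetected change of up to 1.94-fold higher remained inside the interval of *Ehhadh*, and one down to 0.656-fold inside that of *Acaa1b*. Without A226Y 29 and WT 33 the log2 fold changes ran from −0.26 (*Acaa1b*) to 0.37 (*Ehhadh*).

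Levels of different genes were compared after division by the length of the transcript with the longest coding sequence. In WT livers the median was highest for *Acaa1b* (606 CPM per kilobase), followed by *Scp2* (407), *Hsd17b4* (250.2), *Ehhadh* (248), *Abcd3* (198), *Crot* (189), *Acaa1a* (132), *Pex11a* (109) and *Acox2* (75.4 CPM per kilobase). *Acaa1b* was above *Scp2* in 7 of 8 WT livers, *Scp2* above *Hsd17b4* in 8, *Crot* above *Acaa1a* in 8, *Acaa1a* above *Pex11a* in 8 and *Pex11a* above *Acox2* in 6. Neighbours in the middle of the order did not differ beyond their spread: *Hsd17b4* was above *Ehhadh* in 3 of 8 WT livers, *Ehhadh* above *Abcd3* in 5 and *Abcd3* above *Crot* in 4. In A226Y the order was the same except that *Ehhadh* (387 CPM per kilobase) came before *Hsd17b4* (263). Both thiolase genes share stretches, so the distance between *Acaa1b* and *Acaa1a* is uncertain. With the union of all exons as length, *Ehhadh* came before *Hsd17b4* and *Pex11a* before *Acaa1a* also in WT.

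**Figure D2:**
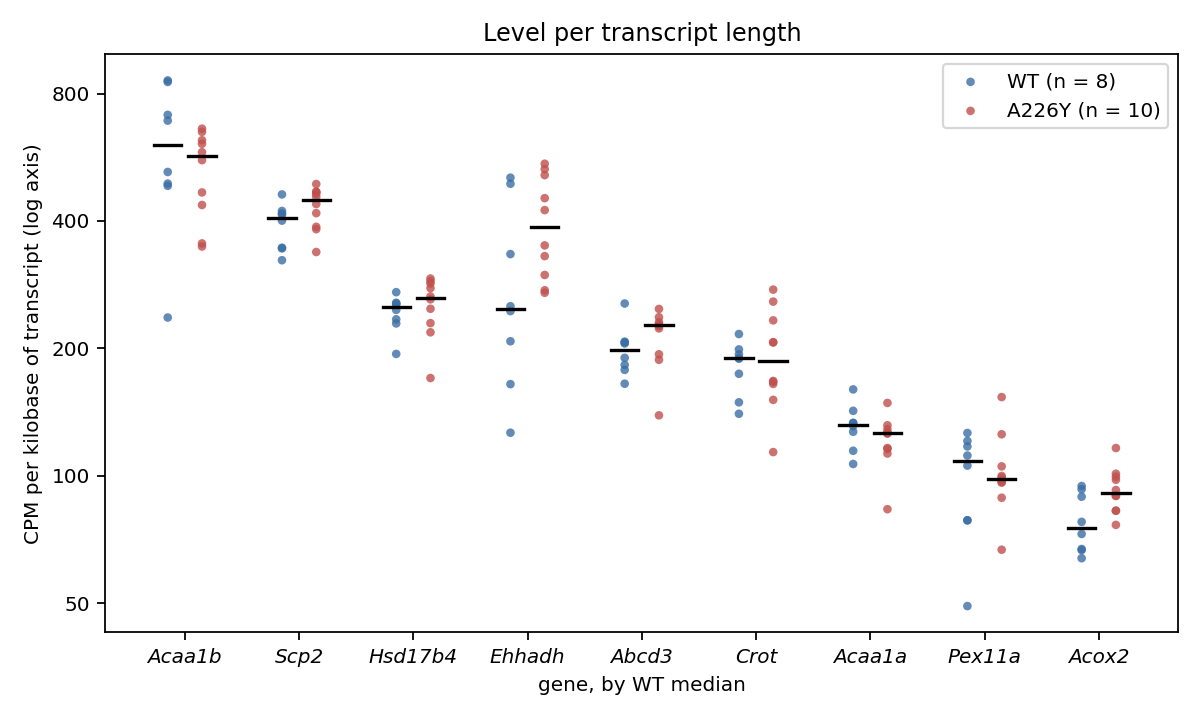
Level per transcript length of the 9 genes (y axis, CPM per kilobase, logarithmic), ordered by the WT median, with a point per mouse (WT blue, A226Y red) and a line at each genotype's median. *Acaa1b* (606 CPM per kilobase in WT) and *Scp2* (407) led, *Hsd17b4*, *Ehhadh*, *Abcd3* and *Crot* overlapped, and *Acox2* (75.4) was lowest.

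Within each genotype 1 liver, A226Y 29 or WT 33, was low for most members. A226Y 29 was the lowest A226Y liver for 7 of the 9 genes and below its genotype mean for all 9, with a mean deviation of −0.46 on the log2 scale. WT 33 was the lowest WT liver for 6 of the 9, with a mean deviation of −0.43, but was the highest WT liver for *Acox2* and above the WT mean for *Crot* (567 CPM against 543 CPM). The third lowest was A226Y 32 at −0.19, and the highest was WT 28 at 0.28, above its genotype mean for all 9 genes. A226Y 29 and WT 33 are the same mice that lay farthest from their genotype over all genes, and whether their low values are particular to this pathway was not tested. A226Y 29 was also the highest A226Y liver for 7 of the 8 Kupffer cell markers, among them *Clec4f* (227 CPM), *Cd5l* (374 CPM) and *Marco* (185 CPM), and for 6 of the 8 lymphocyte markers, among them *Ptprc* (25.1 CPM). WT 33 was the highest WT liver for 6 of the 8 Kupffer cell markers, among them *Clec4f* (238 CPM) and *Cd5l* (293 CPM), and for 7 of the 8 lymphocyte markers (*Ptprc* 29.3 CPM), and the lowest WT liver for *Marco* and *Timd4*. Of the pancreatic acinar markers A226Y 29 was highest for 4, as given above. The part of these cells in the low values of the members was not tested.

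**Figure D3:**
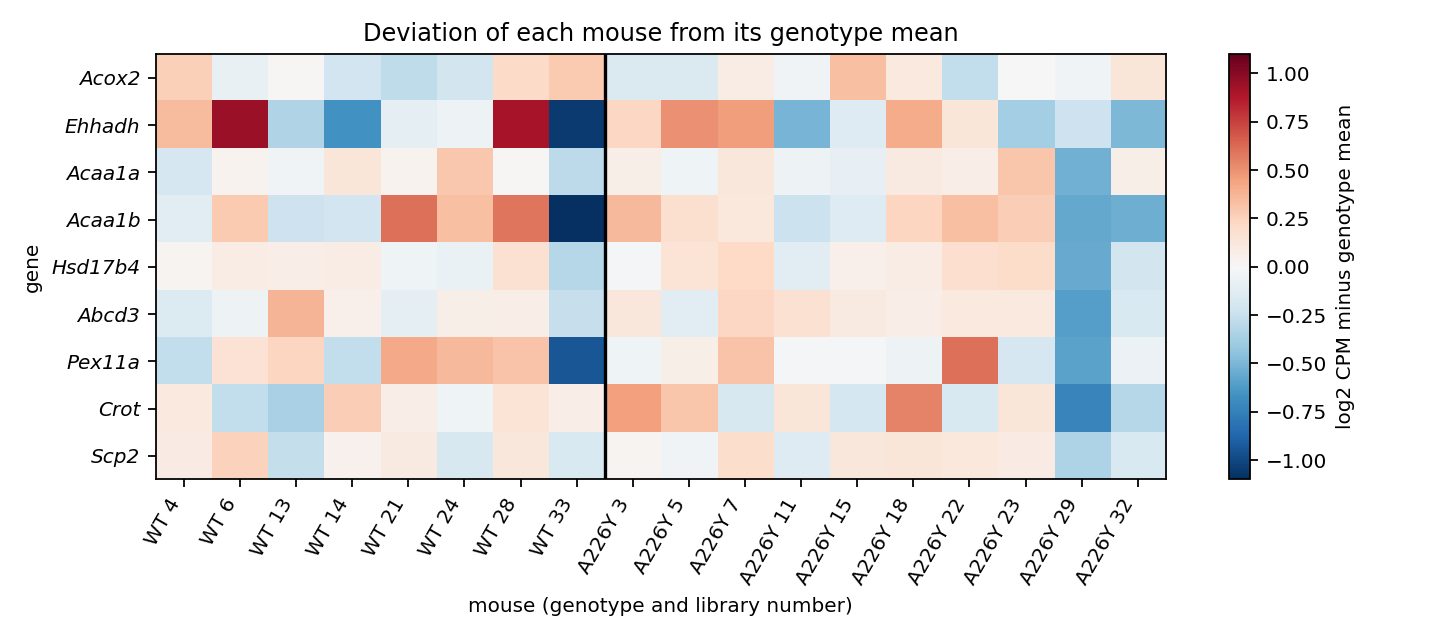
Deviation of each mouse (x axis, genotype and library number, WT left of the line) from its genotype mean for each gene (y axis), in log2 CPM, red above and blue below the mean. The columns of A226Y 29 (mean −0.46) and WT 33 (mean −0.43) were mostly blue, and *Acox2* and *Crot* were above the mean in WT 33.

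Between pairs of members, Pearson's r of these deviations over 18 mice ranged from −0.46 to 0.80 with a median of 0.42, and 29 of the 36 pairs were positive. By a permutation test of r within genotype (two-sided, 100000 resamples, adjusted over the 36 pairs) 14 pairs had an adjusted p under 0.05, while by Spearman's rho none had. The highest was that of *Acaa1b* with *Pex11a* (r = 0.80, rho = 0.66; adjusted p = 0.0126 for r and 0.107 for rho), which was 0.56 within A226Y and 0.92 within WT, and 0.54 without the 2 mice farthest from the median of *Acaa1b*. *Hsd17b4* and *Abcd3* had r = 0.75 (rho 0.50, permutation adjusted p 0.0194 and 0.179; 0.31 without 2 mice). *Hsd17b4* and *Scp2* had r = 0.74 (rho 0.69, permutation adjusted p 0.0126 and 0.0738), with 0.91 within A226Y and 0.48 within WT. *Ehhadh* and *Acaa1b* had r = 0.71 (rho 0.63, permutation adjusted p 0.0194 and 0.109), which stayed at 0.68 without 2 mice and was 0.64 and 0.74 within A226Y and WT. For *Acox2* r was between −0.46 (with *Acaa1b*) and 0.03 (with *Scp2*), and for *Crot* between −0.08 (with *Acox2*) and 0.43 (with *Hsd17b4*), and neither gene had a pair past the threshold.

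Without A226Y 29 and WT 33 the median r of the 36 pairs was 0.14, the range −0.43 to 0.60, and no pair passed. *Ehhadh* and *Scp2* had r = 0.61 over 18 mice (rho 0.60, permutation adjusted p 0.0315 and 0.119) and 0.60 over the remaining 16 mice (rho 0.66, permutation adjusted p 0.351 and 0.366), so the call was lost there with little change in r. *Ehhadh* and *Acaa1b* went from 0.71 to 0.58, and *Hsd17b4* and *Scp2* from 0.74 to 0.58 (permutation adjusted p 0.351 for both).

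**Figure D4:**
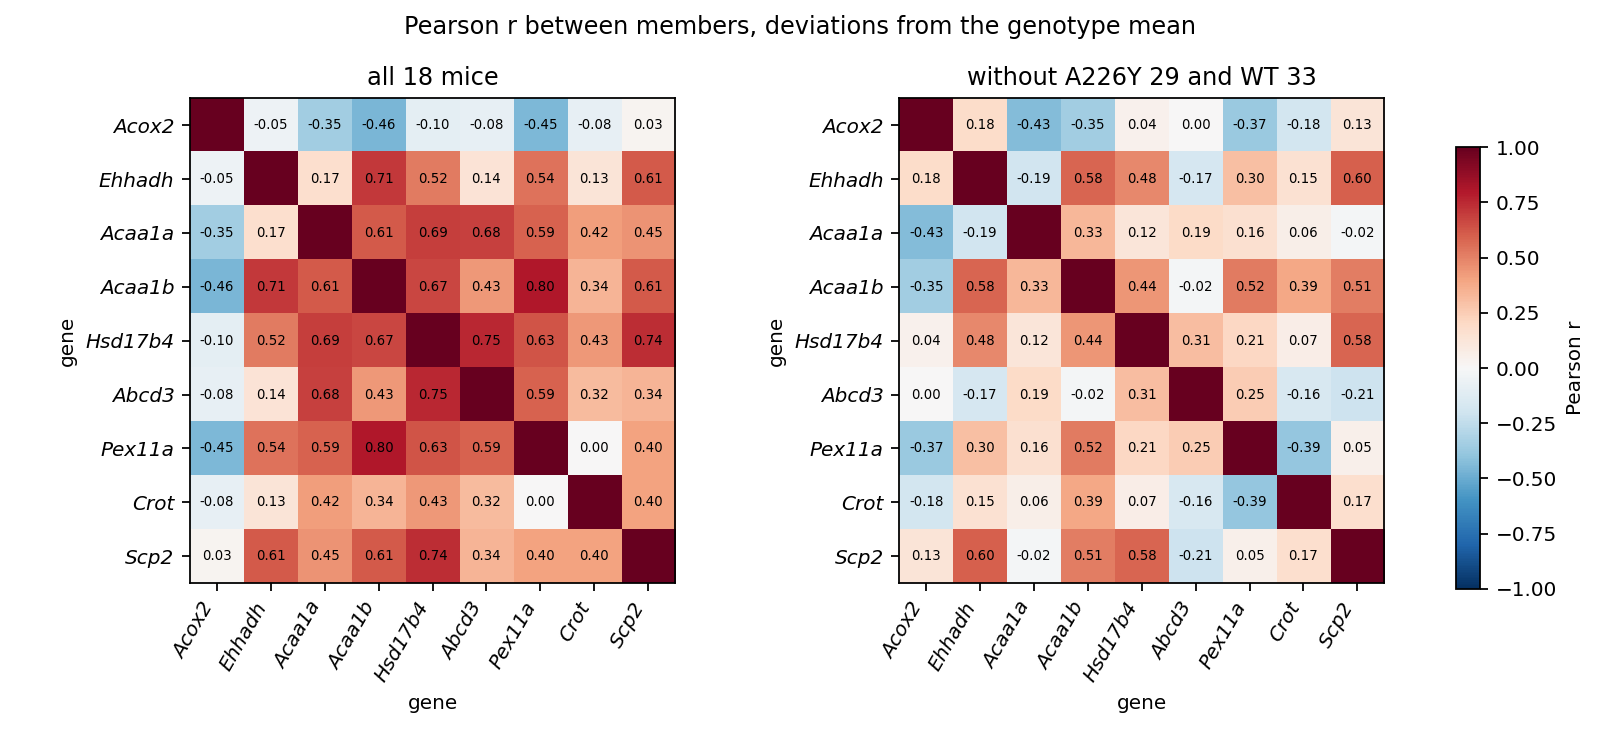
Pearson's r between the 9 genes (both axes) over all 18 mice (left) and over 16 mice without A226Y 29 and WT 33 (right), computed on deviations from the genotype mean, with blue for negative and red for positive values. The median of the 36 pairs was 0.42 on the left and 0.14 on the right.

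Of the 9416 genes averaging 5 CPM or more, those whose deviations followed the mean of the 9 members most closely over the 18 mice were *Retsat* (r = 0.93), *Acad11* (0.92), *Aldh3a2* (0.91), *Ephx2* (0.91) and *Mettl26* (0.91). They were picked for these values, and the points share the libraries A226Y 29 and WT 33, without which r was 0.80, 0.76, 0.79, 0.71 and 0.68. Like the members, none of the 5 passed the test between genotypes, with log2 fold changes from −0.15 (*Mettl26*) to 0.37 (*Retsat*, adjusted p = 0.284, edgeR).

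The rest of the peroxisome was read from lists of 60 further genes, of which 58 were tested: 2 rose and 14 fell in A226Y, beside 7.27% of all tested genes higher and 7.03% lower. Among other enzymes and transporters of peroxisomal fatty acids (26 genes, 25 tested) 1 rose and 6 fell, with a median log2 fold change of −0.15, beside the median of 0.10 of the 9 members. *Decr2*, the peroxisomal dienoyl-CoA reductase of unsaturated chains, fell by 0.41 on the log2 scale (SE 0.117, adjusted p = 0.0258, edgeR), a call lost without WT 13, 14, 21 or 24 (adjusted p up to 0.0591). *Eci3*, an enoyl-CoA isomerase gene, fell by 1.61 (SE 0.389, adjusted p = 0.0109), but at medians of 0.843 CPM in A226Y and 2.80 CPM in WT, with overlapping groups. The call was lost with limma-voom (−1.15, adjusted p = 0.121). *Eci3* is a paralog of *Eci2*, and how far reads tell these genes apart was not measured. *Crat*, the carnitine acetyltransferase that exports acetyl groups, rose by 0.37 (SE 0.124, adjusted p = 0.0479), and kept this call only when the mouse left out was WT 6 or A226Y 29 (adjusted p otherwise 0.0502 to 0.0837). The call of *Crat* was also lost with RLE size factors (adjusted p = 0.05), without the filter on low counts (0.0629) and with an offset for transcript length (0.0857).

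Of the other peroxisomal oxidases and enzymes of peroxide removal (13 genes, 12 tested) 5 fell and none rose, with a median log2 fold change of −0.31. *Paox*, the polyamine oxidase, measured 2.24 to 3.10 CPM in A226Y and 3.42 to 5.54 CPM in WT, without overlap, and fell by 0.63 (SE 0.103, adjusted p = 0.00156, edgeR). *Ddo*, the D-aspartate oxidase, fell by 0.64 (SE 0.126, adjusted p = 0.00363), and *Pipox*, the pipecolic acid and sarcosine oxidase, by 0.40 (SE 0.0893, adjusted p = 0.007). *Hao1*, the glycolate oxidase, fell by 0.49 (SE 0.158, adjusted p = 0.0422), a call lost without A226Y 3, 7, 11, 15, 18, 23 or 32 or WT 4, 13, 14, 21 or 33 (adjusted p up to 0.0858), and also with library size only (0.0511), without the filter (0.0535) and with the length offset (0.0752). Of 21 genes of peroxisome biogenesis and membrane 1 rose and 3 fell, with a median of −0.05. The import factors *Pex10*, *Pex6* and *Pex26* fell by 0.37, 0.36 and 0.29 (SE 0.0837, 0.0927 and 0.0868; adjusted p = 0.00767, 0.0146 and 0.029), the last not without WT 24 or 33 (adjusted p = 0.0561 and 0.0518) nor with an offset for GC content (−0.28, adjusted p = 0.111). *Pex26* fell by 0.17 without A226Y 29 and WT 33 together. *Agps*, which makes ether lipid precursors, rose by 0.22 (SE 0.0676, adjusted p = 0.0339), not so without A226Y 7, 11 or 15 or WT 14, 24 or 28 (adjusted p up to 0.064). With the length offset *Agps* measured 0.08 (adjusted p = 0.479) and with the GC offset 0.11 (adjusted p = 0.261). With 4 surrogate variables none of the 58 genes passed, and with 1 mouse left out at a time between 10 (without WT 14 or WT 24) and 20 (without WT 6) did.

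**Figure D5:**
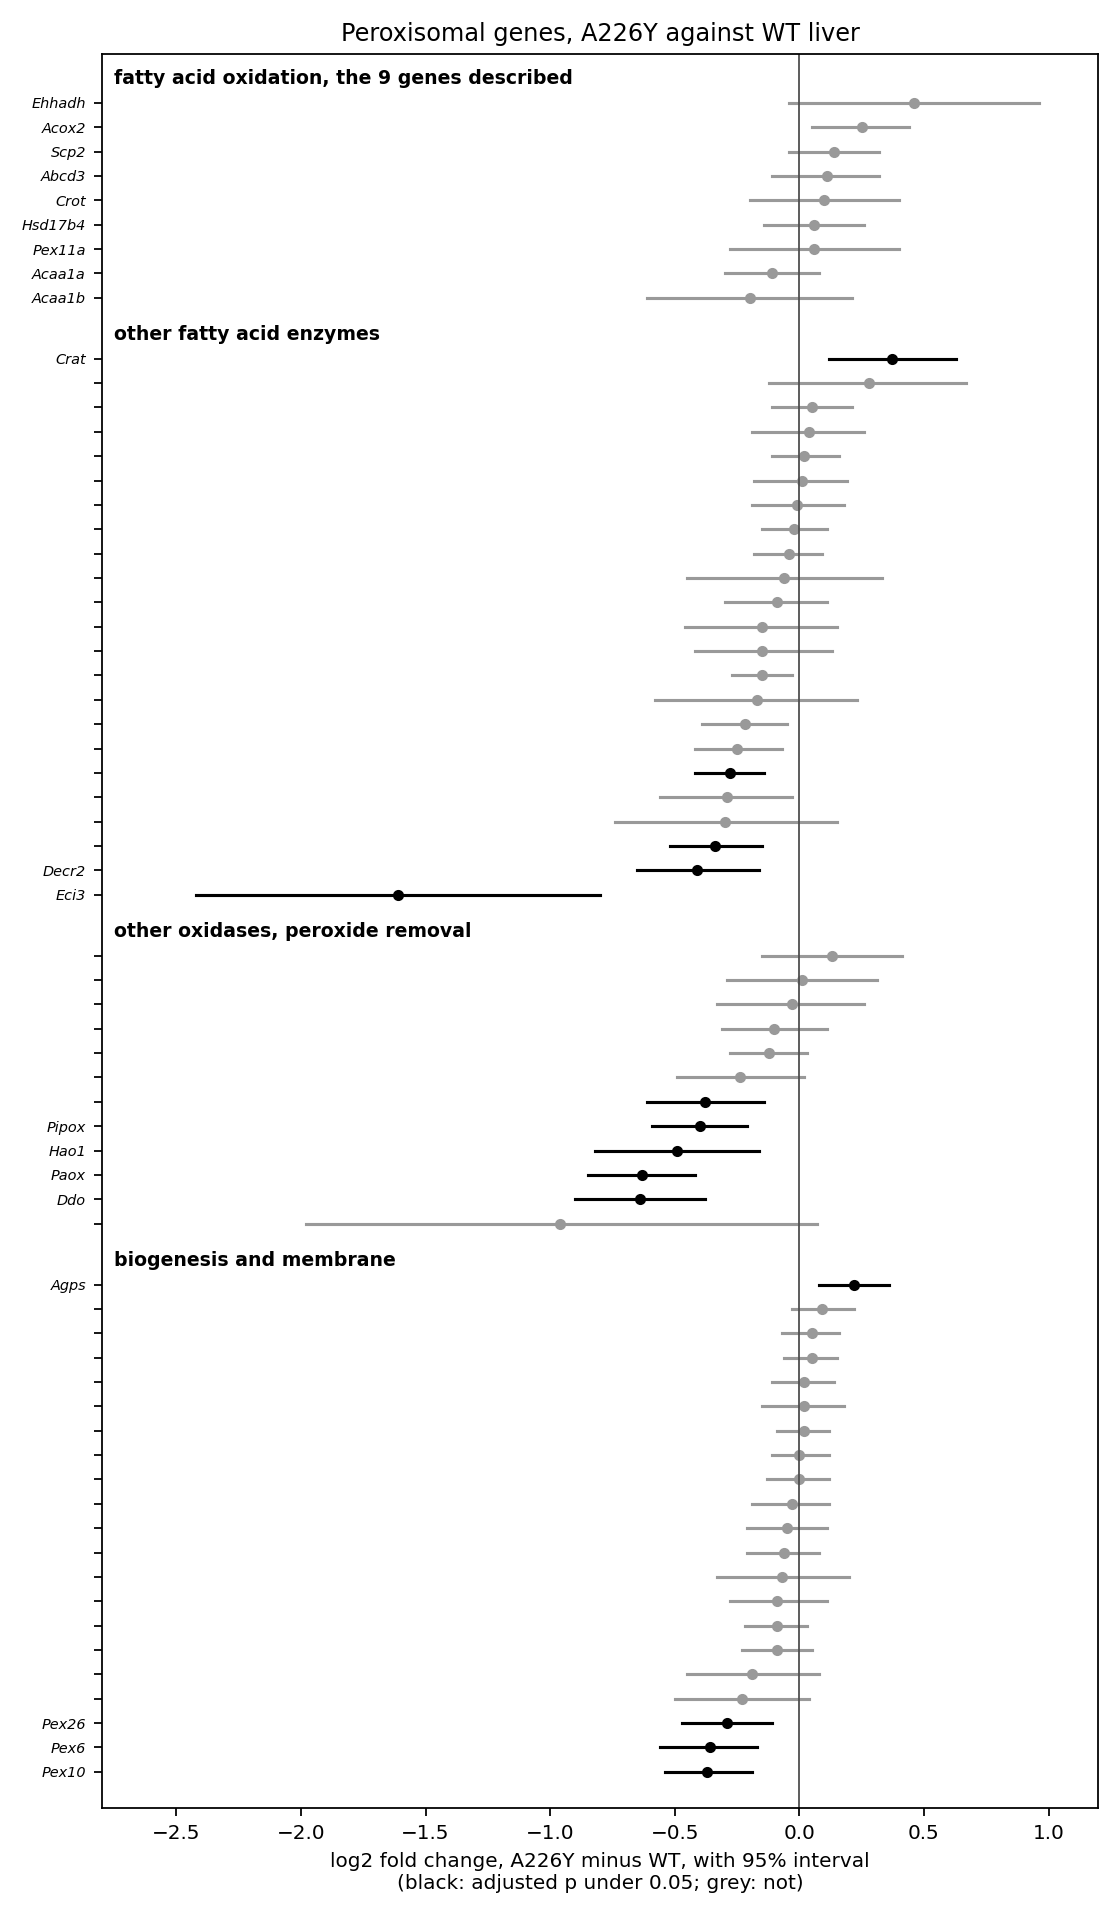
Log2 fold change of A226Y against WT (x axis, points) with its 95% interval (lines) for the 9 genes and 56 other tested peroxisomal genes (y axis, grouped by role), in black where the adjusted p was under 0.05 and in grey otherwise. Names are given for the members and for named genes, and 2 listed genes are not drawn. All 9 members were grey, and of the others shown 2 were black to the right of 0 and 12 to the left.

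Genes around the pathway were listed in the same way. *Ppara*, the receptor itself, measured 75.6, 105 and 128 CPM in A226Y and 84.9, 109.5 and 126 CPM in WT, with a log2 fold change of 0.00 (SE 0.105, 95% interval −0.21 to 0.22, adjusted p = 0.987, edgeR). Among 22 genes of PPARα and its targets outside the peroxisome the median was 0.21, and *Aldh3a2* is also on the list of peroxisomal fatty acid enzymes. Before adjustment 9 of the 22 had a p under 0.05 in the higher and 0 in the lower direction (edgeR), beside 29.6% of all tested genes in either direction. After adjustment 3 rose and none fell, beside 7.27% of all tested genes higher. The 3 were the omega-hydroxylase *Cyp4a31* (0.94, SE 0.27, adjusted p = 0.0256), the muscle-type carnitine palmitoyltransferase *Cpt1b* (0.89, SE 0.24, adjusted p = 0.0192) and the coactivator *Ppargc1a* (0.74, SE 0.157, adjusted p = 0.00539). *Cyp4a31* belongs to a family of near-identical genes, and how far reads tell them apart was not measured. The call of *Cyp4a31* was lost without WT 14, 21 or 24 (adjusted p up to 0.0572) and with the GC offset (0.0501). The count of this list was 2 without WT 14, 21 or 24, 5 without WT 33, 6 without WT 6 or A226Y 29, and 7 without A226Y 29 and WT 33 together. Of 17 mitochondrial beta-oxidation genes 1 rose, *Etfdh* (0.31, SE 0.104, adjusted p = 0.0474), and 2 fell, *Hadh* by 0.39 (SE 0.126, adjusted p = 0.045) and *Echs1* by 0.27 (SE 0.0847, adjusted p = 0.0369). These counts stand beside 7.27% of all tested genes higher and 7.03% lower, and *Cpt1a* and *Slc25a20* are on the PPARα list too. *Etfdh* kept its call only when WT 6 or A226Y 29 was the mouse left out (adjusted p otherwise up to 0.0942). *Hadh* lost it without A226Y 7, 11, 15, 18, 23 or 32 or WT 13, 14, 21, 24 or 28 (adjusted p up to 0.092), and *Echs1* without A226Y 7, 11, 22 or 32 or WT 13, 14 or 24 (adjusted p up to 0.0763). Calls were also lost with the length or GC offset for *Etfdh* (adjusted p = 0.0985 and 0.164) and *Hadh* (0.0516 and 0.0629), and with library size only for *Hadh* (0.0601) and *Echs1* (0.0577). With limma-voom 0 mitochondrial genes were called higher, and with RLE size factors only 1 was called lower. Without the filter on low counts, or with 4 surrogate variables, none passed. That list was called at 0 to 3 genes with 1 mouse left out: 3 without WT 6 or A226Y 29, 1 without A226Y 15, 18, 22 or 23 or WT 21 or 28, and 0 without A226Y 7, 11 or 32 or WT 13, 14 or 24.

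Several of these genes also follow the feeding state. Of 8 genes raised by feeding 3 fell in A226Y (beside 7.03% of all tested genes lower), among them *Srebf1* by 1.22 and *Fasn* by 0.68 on the log2 scale (adjusted p = 0.00551 and 0.0145, edgeR), with a median of −0.49 over the list, and 2 to 4 passed with 1 mouse left out. Of 8 genes raised by fasting 2 rose (beside 7.27% of all tested genes higher, median 0.52), *Ppargc1a*, which is also on the PPARα list, and *Igfbp1* by 1.68 (adjusted p = 0.0283), which measured 1.05 without A226Y 29 and did not pass without WT 13, 14 or 24 (adjusted p up to 0.0598). *Pdk4*, *Fgf21*, *Cpt1a* and *Angptl4* are on the fasting and the PPARα list as well, so the shifts of these lists are not separate observations. The part of the feeding state in the values of the 9 members was not tested.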

How the data were processed

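RNA of 18 livers (10 A226Y, 8 WT) was sequenced in single reads of 50 bases. The authors deposited raw counts per Ensembl gene and mouse, without normalization, and all count columns were used. The submitters' processing notes name bcl2fastq, fastp, MultiQC, STAR, featureCounts and GRCm38, while the study's methods name RSEM with another mouse build, so the counting step and its use of strand are uncertain. Replicates were separate mice, and no pair of the same genotype differed by as little as sampling noise (chi-square per degree of freedom at least 19.7 over 73 pairs). Even the smallest library of 23850565 counts left little counting error for the members, whose precision was set by the spread between libraries. With a single library per mouse, differences between animals and between preparations cannot be told apart.

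Identifiers were matched to GENCODE M21 (22214 of 22524). A gene was tested if it reached 10 counts in 50% or more of the A226Y or of the WT mice (13353 genes) with edgeR 4.0.16 in R 4.3.3: TMM scaling, quasi-likelihood test without covariates, and Benjamini-Hochberg adjustment over all tested genes (threshold 0.05; biological coefficient of variation 0.194). The SE was derived from the log2 fold change and its F statistic. Exact permutation tests covered all 43758 divisions of the mice. Relations used log2 CPM (prior count 2). Alternatives were other scalings (RLE, upper quartile, library size only), other filters, DESeq2 1.42.0, limma-voom 3.58.1, the likelihood ratio and robust fits of edgeR, 4 surrogate variables (sva 3.50.0), lowess offsets fitted in each library to the length or the GC content of transcripts (span 0.3, 3 iterations, pseudocount 0.5; both known for 99.6% of tested genes), and leaving out each mouse. The procedures were tested on simulated counts.

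The members, gene lists and tests were chosen with earlier results of these data known. Named genes were the members, *Rps2* and *Ppara*, per list up to 4 called genes with the largest absolute log2 fold change and 1 CPM or more on average, and the 5 genes most like the members' mean. Promoters came from RefSeq (8 of 9 members matched). Protein and other assays were not used here. A few listed genes enter only the counts and medians of their lists and are not reported singly here.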

Additional observations from a re-analysis of the deposited data

Results flagged for a closer look

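Each level of the 9 members and of the other named genes was checked for a single mouse far from the others of its genotype by Dixon's gap test, in 68 groups of 10 A226Y or 8 WT mice. It singled out 12 values, where chance alone gives about 1 in 20 groups. Among the 9 members it singled out 1 value, the 891 CPM of *Abcd3* in WT 13, where the next WT liver had 724 CPM. A226Y 29 accounted for 6 of the 12. It was the lowest A226Y liver for *Decr2* (139 CPM, next 219.9), *Pex26* (22 CPM, next 28.9), *Hadh* (202 CPM, next 333), *Etfdh* (318 CPM, next 452) and *Echs1* (188 CPM, next 257), and the highest for *Igfbp1* (685 CPM, next 217). WT 33 was the highest WT liver for *Pex26* (51.1 CPM, next 38.2), and WT 24 the lowest for *Agps* (11.9 CPM, next 15.4). Single A226Y livers were highest for *Eci3* (A226Y 5, 1.64 CPM, next 1.01), *Pex10* (A226Y 15, 5.92 CPM, next 4.72) and *Cpt1b* (A226Y 7, 10.4 CPM, next 7.56).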

How the results depend on the processing

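None of the 9 members was past the threshold, and this held for *Ehhadh*, *Acaa1a*, *Acaa1b*, *Hsd17b4*, *Abcd3*, *Pex11a*, *Crot* and *Scp2* under every alternative run. The count of members called was 1, *Acox2*, with library size only (log2 fold change 0.29, adjusted p = 0.0312), with DESeq2 (0.25, 0.0461), without WT 33 (0.29, 0.0424) and without A226Y 29 and WT 33 together (0.30, 0.0327), the last an alternative chosen after seeing the data. With 1 mouse left out at a time that count was 0 to 1, *Acox2* ranged from 0.21 to 0.29, *Ehhadh* from 0.34 to 0.62, *Acaa1b* from −0.32 (without WT 33) to −0.11, *Acaa1a* from −0.15 to −0.06, *Crot* from 0.03 (without A226Y 18) to 0.17, *Abcd3* from 0.07 (without WT 33) to 0.17 (without WT 13), *Scp2* from 0.10 to 0.18, *Hsd17b4* from 0.02 to 0.12 and *Pex11a* from −0.04 to 0.12. With 4 surrogate variables *Crot* measured 0.34, *Ehhadh* 0.24, *Acaa1b* −0.08, *Acox2* 0.07 and *Scp2* 0.05. With the GC offset *Scp2* measured 0.06, *Hsd17b4* 0.03, *Abcd3* 0.02, *Crot* 0.01 and *Acaa1b* −0.13. No member but *Pex11a* changed sign under any alternative run, and the cause of these changes was not tested.

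Over all genes 1910 were called (50.8% higher), 29 with 4 surrogate variables, and 1255 (without WT 14) to 2560 (without A226Y 29) with 1 mouse left out. The share of higher genes was 67.9% of 2059 with library size only, 28.2% of 1356 with the length offset and 28.7% of 1431 with the GC offset. Other peroxisomal genes numbered 0 with surrogate variables and 10 to 20 with 1 mouse left out, against 16. The PPARα list numbered 6 with DESeq2, 6 with the likelihood ratio test, 0 with surrogate variables, 7 without A226Y 29 and WT 33 and 2 to 6 with 1 mouse left out, against 3. The mitochondrial list numbered 1 with library size only, 1 with the length and 1 with the GC offset, 0 without the filter, 0 with surrogate variables and 0 to 3 with 1 mouse left out, against 3. Pairs of members past the threshold numbered 0 without A226Y 29 and WT 33, against 14.

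*Eci3* turned to 0.34 with surrogate variables and measured −1.15 with limma-voom. *Ppara* stayed near 0 and changed sign: 0.00 with upper quartile scaling, −0.06 with surrogate variables, −0.03 with the length offset, −0.01 with the GC offset and −0.04 to 0.05 with 1 mouse left out. Genes of the longest quartile minus those of the shortest deviated by −0.034 to 0.209 in A226Y and −0.224 to 0.0344 in WT (log2), and those of the highest GC quartile minus the lowest by −0.165 to −0.0271 in 9 A226Y livers, 0.255 in A226Y 29 and −0.0266 to 0.272 in WT, so that in GC the genotypes overlapped through A226Y 29 alone. No paired analysis was possible because the labels give no pairing of mice between the genotypes.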

Other observations

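Chosen after their values were seen, *Cyp4a14* and *Cyp4a10* showed wide shifts without passing the adjusted threshold. They encode omega-hydroxylases of the endoplasmic reticulum, which make the dicarboxylic acids that peroxisomes shorten. *Cyp4a14* measured 4197, 7045 and 9842 CPM (lowest, median, highest) in A226Y and 358, 3032 and 6770 CPM in WT, and 6 of 10 A226Y livers were above the highest WT liver. Its log2 fold change was 0.97 (SE 0.337, 95% interval 0.26 to 1.67; adjusted p = 0.0585, edgeR), and the exact permutation p was 0.00103. *Cyp4a10* measured 517, 1855 and 2459 CPM in A226Y and 316, 1126 and 1480 CPM in WT, with 8 of 10 A226Y livers above the highest WT liver. Its log2 fold change was 0.73 (SE 0.262, 95% interval 0.18 to 1.28; adjusted p = 0.0655, edgeR), and the exact permutation p was 0.0284. Both permutation p-values are unadjusted and belong to genes picked for their values. *Cyp4a32* of the same family measured 0.36 (adjusted p = 0.149, edgeR). Of the 22 genes of the PPARα list 16 had positive and 6 negative log2 fold changes. For *Cyp4a14* and *Cyp4a10* the lowest liver of each genotype was again A226Y 29 and WT 33. Genes of this family are near copies, and how far reads tell them apart was not measured.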
